A study of Mus musculus with 6 samples.

Results

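The VEGF ligands and receptors are a family of 10 genes, of 41064 in the deposited table, taken by symbol. They comprise the ligand genes Vegfa, Vegfb, Vegfc, Vegfd and Pgf, the receptor tyrosine kinase genes Flt1, Kdr and Flt4, and the co-receptor genes Nrp1 and Nrp2. RNA was sequenced from mouse aorta in 6 libraries, all from mice given angiotensin II (Ang II), a vasoconstrictor peptide that provokes remodelling of the vessel wall. Of these, 3 were labelled wild type (WT) and 3 were labelled Josd2 knockout (labelled KO below), Josd2 being a deubiquitinase gene. The design text speaks of 3 mice a group. The labels give no age, sex, strain, dose or duration of treatment, nor how the knockout was made, and no untreated aorta was analysed here.

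The VEGF ligands are secreted growth factors of blood and lymphatic vessels. VEGF-A acts through the receptor that Kdr encodes, VEGFR2, to drive endothelial growth and permeability. VEGF-B and placental growth factor, encoded by Pgf, have VEGFR1 as their receptor kinase, the product of Flt1, which also binds VEGF-A tightly with little signalling and so can hold it back. VEGF-C and VEGF-D act mainly on VEGFR3, the product of Flt4, which in adults is best known from lymphatic endothelium. The neuropilins Nrp1 and Nrp2 bind VEGF and class 3 semaphorins and present them to VEGF receptors or plexins. In an artery the receptors are known chiefly from endothelium, while ligands also come from smooth muscle, fibroblasts, fat and leukocytes.

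Total counts per library ran from 63612353 to 75886761 in the deposited unit, whose relation to read pairs no source used here gives. Mitochondrially encoded genes took 36.2% of counts in each WT library and 23.8% to 23.9% in each labelled KO library. Scaled by library totals, the log2 fold change of labelled KO over WT was, at the median gene, 0.41 higher than on the TMM scale. It was 0.16 higher where mitochondrially encoded genes were left out of the totals. Levels below are deposited FPKM divided by each library's TMM factor (TMM-scaled FPKM), per gene length and so comparable between genes. A positive log2 fold change means a higher level in the labelled KO libraries, and adjusted p comes from edgeR's quasi-likelihood test over the 20132 genes that passed a filter on low counts. Josd2 itself was lower on this scale but not absent, at 9.58, 9.93 and 9.41 TMM-scaled FPKM in the WT libraries and 6.95, 6.39 and 6.86 in those labelled KO (edgeR log2 fold change -0.52 ± 0.07 SE, adjusted p = 0.000244). With library totals it did not pass (-0.11, edgeR adjusted p = 0.231), and its deposited FPKM was 8.36 ± 0.224 against 7.76 ± 0.356 (SD, n = 3 each). The transcript was thus retained in every library, gene-level counts cannot show a deletion of part of a gene, and every direction below rests on the labels. The extraction protocol speaks of adipose tissue although the tissue label is aorta. Smooth muscle genes were abundant in every library, with summed levels of 6 markers of 6588 to 6652 in WT and 6093 to 6115 in the KO-labelled libraries. No sample label ties a library to an animal, so p-values measure only the spread between these libraries, which may be technical.

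To show the DNA next to members that moved together or did not, the bases before the start site are printed for 2 receptor genes that rose, for Vegfa, which rose little, and for Vegfb, which did not pass the test. They come from RefSeq on GRCm38.p6, run 5′ to 3′ on the gene's strand, and stop before any exon of GENCODE release M21. Capitals mark, on either strand, the HIF core GCGTG, the GC box GGGCGG, the TATA box TATAAA and the cAMP response element TGACGTCA. The Kdr bases are chr5:75978459-75978705 on the minus strand, and the Flt1 bases are chr5:147726012-147726261 on the minus strand. Those of Vegfa are chr17:46032378-46032627 and those of Vegfb chr19:6987652-6987901, both on the minus strand.
Kdr: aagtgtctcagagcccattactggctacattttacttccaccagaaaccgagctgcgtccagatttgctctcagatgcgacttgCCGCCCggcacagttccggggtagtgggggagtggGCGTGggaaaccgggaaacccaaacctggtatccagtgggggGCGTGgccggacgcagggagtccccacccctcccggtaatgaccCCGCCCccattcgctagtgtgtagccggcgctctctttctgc
Flt1: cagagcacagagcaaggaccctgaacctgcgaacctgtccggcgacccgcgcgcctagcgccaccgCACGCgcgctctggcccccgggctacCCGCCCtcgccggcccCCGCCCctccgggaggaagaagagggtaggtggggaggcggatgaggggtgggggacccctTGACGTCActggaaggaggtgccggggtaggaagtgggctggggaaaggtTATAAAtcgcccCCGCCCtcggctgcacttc
Vegfa: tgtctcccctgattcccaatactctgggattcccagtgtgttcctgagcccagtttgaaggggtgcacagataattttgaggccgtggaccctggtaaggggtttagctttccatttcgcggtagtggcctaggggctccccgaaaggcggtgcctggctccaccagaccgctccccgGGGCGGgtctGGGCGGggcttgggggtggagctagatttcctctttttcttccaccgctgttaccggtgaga
Vegfb: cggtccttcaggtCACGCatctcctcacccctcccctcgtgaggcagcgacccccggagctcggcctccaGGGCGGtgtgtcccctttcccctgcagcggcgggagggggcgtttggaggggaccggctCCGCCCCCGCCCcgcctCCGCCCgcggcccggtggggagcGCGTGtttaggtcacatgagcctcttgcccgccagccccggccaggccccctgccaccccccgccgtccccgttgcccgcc

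Over windows of 250 bases, a GC box, the letters bound by Sp1-type factors, was present in 9 of the 10 members and in 32.7% of 32851 RefSeq windows. The windows of Kdr and Flt1 are 61.6% and 70.4% G and C, against a median of 52.4% over all windows. Those of the 9 members with a GC box run from 59.2% (Vegfa) to 76.4% (Vegfb), and that of Vegfd is 42.4%. Windows of equal G and C content were not compared. The HIF core GCGTG, letters that hypoxia-inducible factors can bind, was present in 6 members (Vegfb, Pgf, Flt1, Kdr, Nrp1 and Nrp2) and in 28.2% of all windows. The related core ACGTG was in none of the members and in 16.6% of all windows. The ETS core CCGGAAG was in none either, and in 6.91% of all windows. A TATA box was present in Vegfd and Flt1 and in 12.4% of all windows. The cAMP response element TGACGTCA, searched after the windows had been read, was present in Flt1 alone of the 10 and in 1.55% of all windows. The GC box was thus present in members that rose, in Pgf, which fell, and in both that did not pass. Vegfd, the member without it, also rose.

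VEGF receptor and co-receptor transcripts were all higher in the KO-labelled libraries, whereas the ligands went different ways. Of the 10 members, 7 rose, 1 fell and 2 did not pass, beside 13.2% of all tested genes higher and 11.5% lower (24.7% in either direction). Of the 7 that rose, 4 did so at least 2-fold (Vegfd, Flt1, Kdr and Flt4), as did 2.57% of all tested genes. All 10 passed the filter on low counts, with at least 234 counts in every library. The median log2 fold change was 0.70 over the 10, 1.07 over the 5 receptor and co-receptor genes and 0.17 over the 5 ligands, against -0.00 over all tested genes. For 8 members the groups did not overlap (7 higher, 1 lower), as was the case for 41.2% of all tested genes (21.3% higher, 19.8% lower). Scaled by library totals instead, 9 members rose and Pgf did not pass, where 46.8% of all genes were higher and 3.81% lower.

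**Figure D1:**
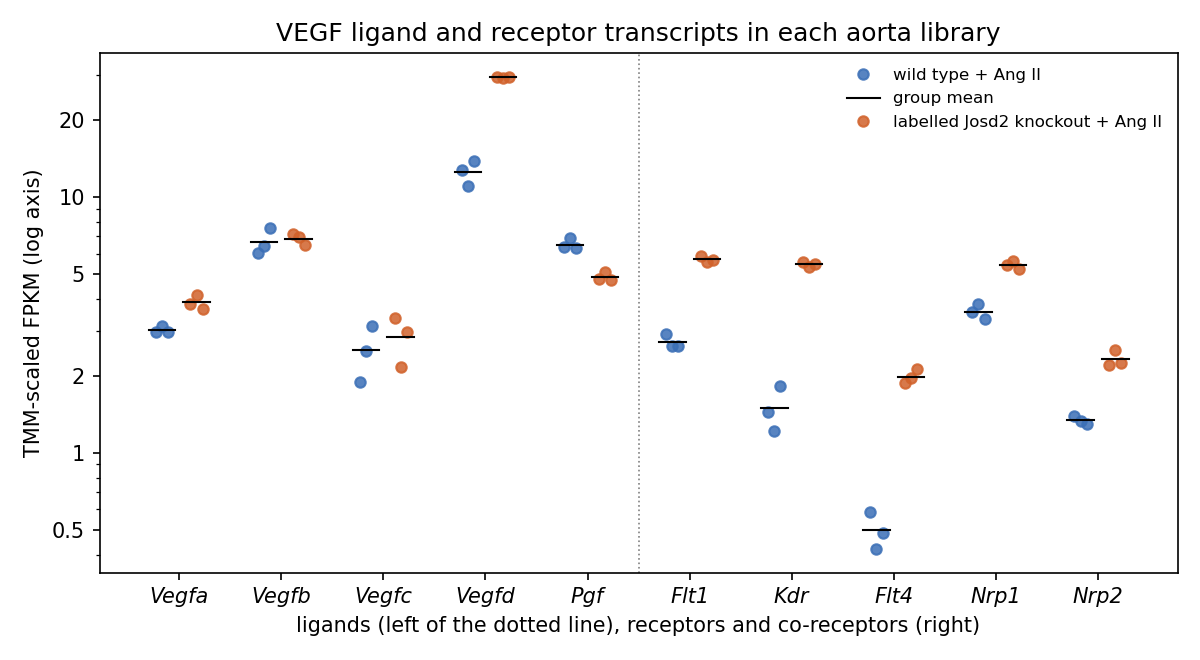
TMM-scaled FPKM on a log axis for each of the 10 genes, 1 point per library and a line at the mean of 3. The labelled KO points lie above all WT points for the 5 receptor and co-receptor genes, Vegfd and Vegfa, and below them for Pgf. They lie among the WT points for Vegfb and overlap with them for Vegfc.

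Among the receptors, Kdr encodes VEGFR2, the main signalling receptor for VEGF-A on blood endothelium, and lies on chromosome 5 from 75932827 to 75978458 on the minus strand (GRCm38 coordinates, as the deposited table has them). Its TMM-scaled FPKM was 1.44, 1.22 and 1.83 in the WT libraries and 5.58, 5.30 and 5.47 in the KO-labelled libraries. The lowest labelled KO library was thus far above the highest WT library. The means were 1.50 ± 0.307 and 5.45 ± 0.138 (SD, n = 3 each), a 3.64-fold difference (edgeR log2 fold change 1.86 ± 0.12 SE, adjusted p = 6.97e-07).

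Flt4 encodes VEGFR3, the receptor for VEGF-C and VEGF-D, and lies on chromosome 11 from 49609263 to 49652739 on the plus strand. It had the lowest level of the family in both groups, at 0.589, 0.421 and 0.483 in WT and 1.87, 1.95 and 2.12 in the KO-labelled libraries. The groups did not overlap, and its rise was the highest fitted fold of the 10 members (3.97-fold, edgeR log2 fold change 1.99 ± 0.14 SE, adjusted p = 1.2e-06). On the scale of log2(FPKM + 1) it was 1.20, where a pseudocount shrinks low genes.

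Flt1, on chromosome 5 from 147561604 to 147726011 on the minus strand, encodes VEGFR1 and, through shorter transcripts, a soluble form that traps ligand. Levels were 2.91, 2.62 and 2.62 in WT and 5.88, 5.58 and 5.67 in the KO-labelled libraries, without overlap. Means of 2.71 ± 0.169 and 5.71 ± 0.156 gave a 2.10-fold rise (edgeR log2 fold change 1.07 ± 0.05 SE, adjusted p = 1.03e-07). The table lists 6 Flt1 transcripts under a single count, so the soluble form and the full receptor were not told apart.

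Kdr and Flt1 rose unequally. The ratio of Flt1 to Kdr, described without a test because it was chosen after the values were seen, was 2.02, 2.15 and 1.43 in WT and 1.05, 1.05 and 1.04 in the KO-labelled libraries. In WT the Flt1 transcript thus exceeded Kdr in each library, and in the KO-labelled libraries the pair stood at nearly the same level. This ratio is taken within a library and does not depend on the scaling between libraries.

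The co-receptors rose less. Nrp1 stood at 3.54, 3.80 and 3.33 in WT and at 5.41, 5.59 and 5.21 in the KO-labelled libraries (1.52-fold, edgeR log2 fold change 0.60 ± 0.06 SE, adjusted p = 2.59e-05). It lies on chromosome 8 from 128358604 to 128462081 on the plus strand in the deposited table, whereas GENCODE M21 ends the gene at 128503363. It is the only member whose coordinates differ between the sources, and the effect on its count was not tested. Nrp2, the neuropilin better known from veins and lymphatics, lies on chromosome 1 from 62703285 to 62818695 on the plus strand. Its levels were 1.40, 1.32 and 1.29 against 2.21, 2.52 and 2.24 (1.74-fold, edgeR log2 fold change 0.80 ± 0.08 SE, adjusted p = 2.21e-05). Neither co-receptor overlapped between groups.

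**Figure D2:**
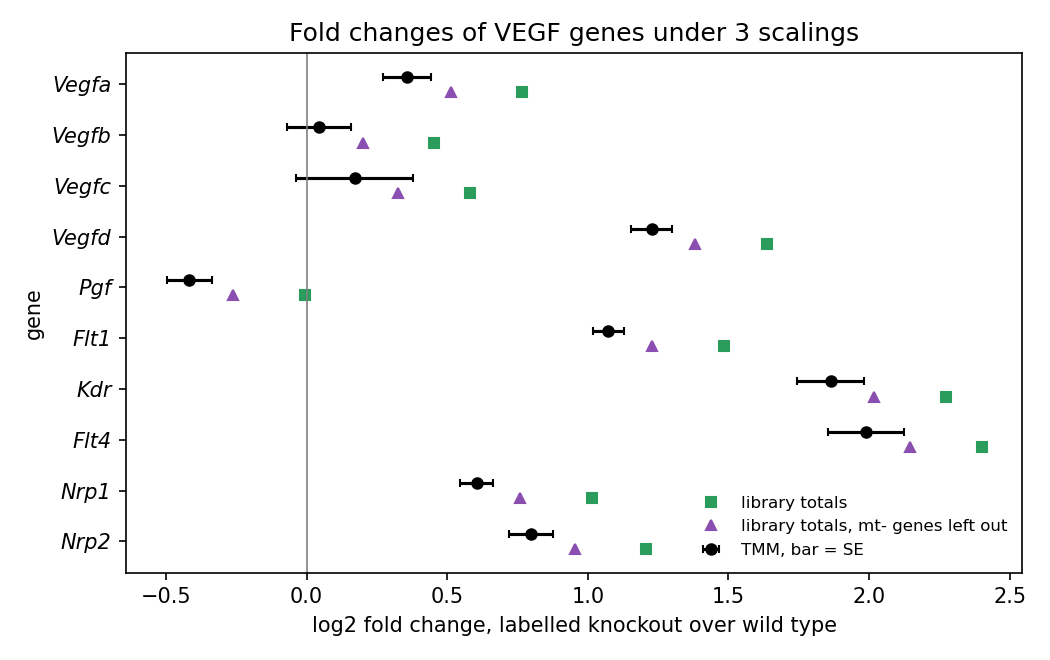
Log2 fold change of each gene on the TMM scale (circles, bars are the SE of edgeR's fit), with library totals (squares) and with library totals after mitochondrially encoded genes were left out (triangles). The 5 receptor and co-receptor genes, Vegfd and Vegfa are above 0 on all 3 scales, while Pgf lies at -0.42, -0.01 and -0.26.

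Of the ligands, Vegfd had the highest level of the family in both groups. VEGF-D is a secreted factor that becomes fully active after proteolytic trimming, and its gene lies on the X chromosome from 164373378 to 164402650 on the plus strand. Vegfd stood at 12.7, 11.1 and 13.8 in WT and at 29.4, 29.1 and 29.5 in the KO-labelled libraries, with tight agreement between the latter. It rose 2.34-fold (edgeR log2 fold change 1.23 ± 0.07 SE, adjusted p = 3.54e-07), with means of 12.5 ± 1.38 and 29.3 ± 0.223 (SD, n = 3 each).

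Vegfa, the main angiogenic ligand, lies on chromosome 17 from 46016993 to 46032369 on the minus strand. Its levels were 2.96, 3.12 and 2.97 in WT and 3.81, 4.14 and 3.65 in the KO-labelled libraries. The groups did not overlap but were close, and the rise was 1.28-fold (edgeR log2 fold change 0.36 ± 0.09 SE, adjusted p = 0.0109). Without labelled KO 2, the library with the highest Vegfa level, it no longer passed (0.31, edgeR adjusted p = 0.0608). With library totals the rise was 0.77 on the log2 scale. The table lists 9 Vegfa transcripts under a single count, so isoforms that differ in binding to matrix were not told apart.

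Pgf, the placental growth factor gene and a VEGFR1 ligand, lies on chromosome 12 from 85166635 to 85177790 on the minus strand. It stood at 6.35, 6.88 and 6.31 in WT and at 4.78, 5.09 and 4.75 in the KO-labelled libraries. Every labelled KO library was below every WT library on this scale. Pgf was lower (edgeR log2 fold change -0.42 ± 0.08 SE, adjusted p = 0.00282), but with library totals it stood at -0.01 (edgeR adjusted p = 0.954), with deposited FPKM of 5.65 ± 0.275 and 5.62 ± 0.206. Whether Pgf fell thus rests on the scaling between libraries.

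Vegfb and Vegfc did not pass. Vegfb, the other VEGFR1 ligand, lies on chromosome 19 from 6982473 to 6987651 on the minus strand, and stood at 6.01, 6.40 and 7.57 against 7.15, 6.99 and 6.47 (edgeR log2 fold change 0.05 ± 0.11 SE, adjusted p = 0.824). Vegfc, the main lymphatic growth factor, lies on chromosome 8 from 54077606 to 54187096 on the plus strand, with levels of 1.90, 2.50 and 3.13 against 3.37, 2.17 and 2.95 (edgeR log2 fold change 0.17 ± 0.21 SE, adjusted p = 0.616). Vegfc had the highest SE of the family's fits, with an SD of 0.618 around a WT mean of 2.51, so differences within that spread were not detectable here. With library totals both passed upward, Vegfb at 0.45 (edgeR adjusted p = 0.00609) and Vegfc at 0.58 (edgeR adjusted p = 0.0384).

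Ordered by level, the WT aorta had Vegfd first, then Vegfb (6.66 ± 0.807) and Pgf (6.51 ± 0.322), whose ranges overlapped. Nrp1, Vegfa and Flt1 followed at 3.55, 3.01 and 2.71, and Flt1 overlapped with Vegfc at 2.51. Kdr at 1.50 and Nrp2 at 1.34 overlapped, and Flt4 was last at 0.498. In the KO-labelled libraries Vegfd and Vegfb were again first, but Flt1, Kdr and Nrp1 came next at 5.71, 5.45 and 5.40 with overlapping ranges between neighbours. Pgf (4.87), Vegfa (3.87) and Vegfc (2.83) then followed, with Nrp2 (2.32), which overlapped with Vegfc, and Flt4 (1.98) at the end. All 3 receptor kinases thus lay below Pgf and Vegfb in WT, and Flt1 and Kdr lay above Pgf in the KO-labelled libraries.

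The make-up of the ligands shifted toward Vegfd. The summed level of the 5 ligands was 31.2 ± 2.20 in WT and 47.8 ± 0.661 in the KO-labelled libraries (1.53-fold). Vegfd made up 42.5%, 36.9% and 40.9% of that sum in WT and 60.6%, 61.3% and 62.3% in the KO-labelled libraries. The share of Pgf was 21.2%, 23.0% and 18.7% against 9.85%, 10.7% and 10.03%, and the share of Vegfb 21.3% ± 1.17 against 14.4% ± 0.612. Vegfa made up 9.69% ± 0.826 and 8.10% ± 0.550. The ratio of Pgf to Vegfa was 2.16 ± 0.0436 in WT and 1.26 ± 0.0368 in the KO-labelled libraries (SD, n = 3 each). For these shares and the ratio the groups did not overlap, and the two-sided exact permutation test gave p = 0.1, the smallest that 3 against 3 allows (adjusted p = 0.122 over 11 ratios). Only the share of Vegfc overlapped (7.98% ± 1.50 against 5.91% ± 1.22, exact permutation p = 0.2).

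**Figure D3:**
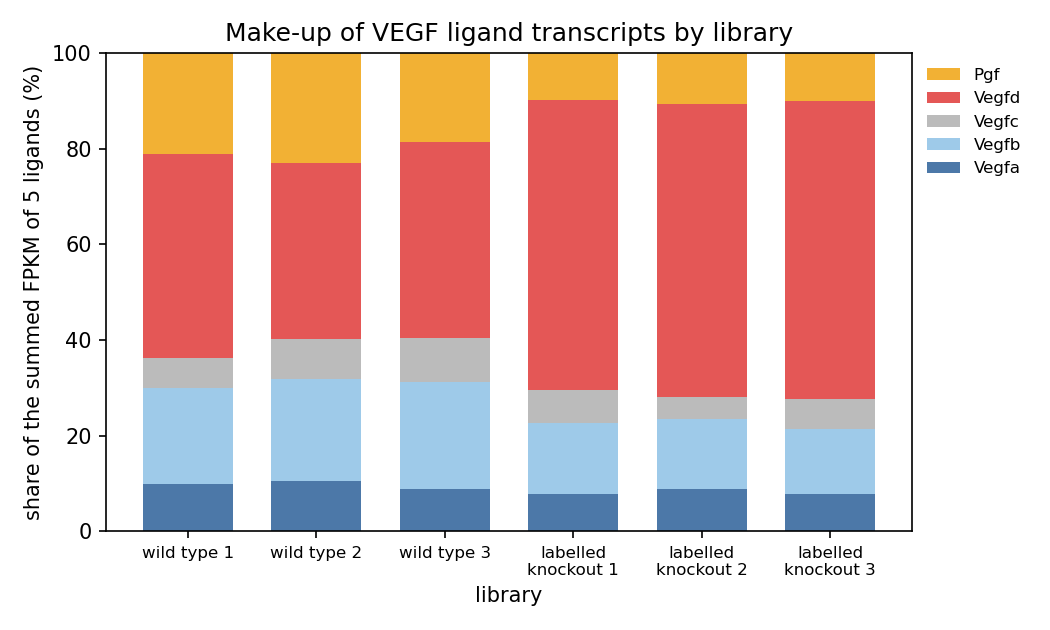
Share of each ligand gene in the summed FPKM of the 5 ligands, 1 stacked bar per library. Vegfd takes 36.9% to 42.5% of the sum in WT and 60.6% to 62.3% in the KO-labelled libraries.

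Endothelial marker genes moved with the receptors. Of 12 blood endothelial markers, 9 rose, 1 fell and 2 did not pass, beside 13.2% of all tested genes higher and 11.5% lower. The median log2 fold change of the 12 was 0.73. Among them Cdh5, which encodes VE-cadherin, rose 1.93-fold, the orphan receptor gene Tie1 2.22-fold, Vwf, for von Willebrand factor, 2.14-fold, and Pecam1, for the adhesion molecule CD31, 1.31-fold. The tight junction gene Cldn5 was lower, at -0.29 log2 (edgeR adjusted p = 0.00749), but stood above 0 without passing when scaled by library totals. The summed level of the 12 was 106 to 107 in WT and 145 to 147 in the KO-labelled libraries, and none was at 0. Of 6 capillary markers 4 rose, with summed levels of 64.0 to 65.1 and 93.2 to 97.7, including the apelin receptor gene Aplnr at 2.89-fold. With library totals 11 of the 12 blood endothelial and 6 of the 6 capillary markers were higher, beside 46.8% of all tested genes. In bulk aorta, more endothelial cells and more RNA per cell cannot be told apart.

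Set against the geometric mean of the 12 endothelial markers, which was 6.28 ± 0.0438 in WT and 9.55 ± 0.0709 in the KO-labelled libraries (1.52-fold), the receptors separated. Kdr over that mean was 0.231, 0.193 and 0.291 in WT and 0.581, 0.554 and 0.578 in the KO-labelled libraries, 2.39-fold higher. Flt4 was 2.62-fold higher on that measure, at 0.0793 ± 0.0141 and 0.208 ± 0.0147, and Flt1 1.38-fold higher, at 0.433 ± 0.0294 and 0.598 ± 0.0150. Nrp2 was 1.14-fold higher, and Nrp1 stood at 0.566 ± 0.0346 and 0.566 ± 0.0171, with overlap. Except for Nrp1 (exact permutation p = 1) each comparison gave the exact permutation p of 0.1 that is the smallest possible. The 12 markers were themselves mixed, from 0.819-fold for Cldn5 to 2.22-fold for Emcn, the endomucin gene. The 2.10-fold rise of Flt1 lay within that range, and those of Kdr (3.64-fold) and Flt4 (3.97-fold) lay above it, a difference that was not tested.

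The lymphatic markers, a list of 8 that holds Flt4 itself, went different ways. Prox1, the transcription factor that specifies lymphatic endothelium, rose from 0.0952 ± 0.0305 to 0.870 ± 0.0744 (edgeR log2 fold change 3.17 ± 0.24 SE, adjusted p = 2.69e-06). Mmrn1, which encodes multimerin 1, rose 5.29-fold and Tbx1, another transcription factor gene, 2.63-fold. Lyve1, which encodes a hyaluronan receptor of lymphatics and of resident macrophages, was lower (-0.26, edgeR adjusted p = 0.0357), as was Pdpn, for podoplanin (-0.57, edgeR adjusted p = 0.016), though neither passed with library totals. The lymphatic chemokine gene Ccl21a stood at -0.57 without passing (edgeR adjusted p = 0.0609). In all, 4 rose, Flt4 among them, 2 fell and 2 did not pass, beside 13.2% of all tested genes higher and 11.5% lower. The summed level was 19.3 to 23.0 in WT and 22.1 to 23.5 in the KO-labelled libraries.

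Markers of other cell types differed between the groups as well, where 13.2% of all tested genes were higher and 11.5% lower on the TMM scale. Of 8 macrophage markers 6 fell and Cd163 rose, with summed levels of 352 to 368 in WT and 161 to 162 in the KO-labelled libraries. Of 5 white adipocyte markers 2 rose (Adipoq and Plin1), with sums of 22.6 to 23.8 and 30.4 to 34.5. All 4 lung markers fell, from sums of 10.6 to 13.6 to sums of 1.01 to 1.39, and 3 of the 4 tested kidney markers fell, led by Aqp2. Of 6 fibroblast markers 4 fell and 2 rose, with sums of 483 to 488 and 430 to 437. Of the pericyte markers 2 rose and 2 fell of 6. Rgs5 was the lowest at -0.93. Of the brown adipocyte markers 2 of 4 tested rose, of the striated muscle markers 2 of 7 rose and 2 fell, of the neural markers 2 of 4 fell, and of the platelet markers 3 of 4 fell. Of the 6 smooth muscle markers 4 rose and 1 fell. Several of these directions rest on the scaling between libraries. With library totals 5 fibroblast markers were higher and 0 lower, 6 smooth muscle markers higher and 0 lower, and 4 pericyte markers higher and 1 lower. There 5 macrophage markers were lower and 2 higher, and 4 lung, 2 kidney and 1 platelet marker were lower. Elovl3 (brown fat) and Umod (kidney) were not tested, with 8 and 5 counts in WT 1 and 0 in each of the other libraries of both groups. The part of these cell types in the levels of the VEGF genes was not tested.

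Genes that process VEGF-C and VEGF-D went different ways. Of 8 listed genes, 4 fell, 2 rose and 2 did not pass on the TMM scale. Over all tested genes, 11.5% were lower and 13.2% higher. With library totals 2 of the 8 were lower and 5 higher, beside 3.81% and 46.8% of all tested genes. Plau, the urokinase gene, fell from 8.91 ± 0.977 to 2.66 ± 0.102 (edgeR log2 fold change -1.74 ± 0.10 SE, adjusted p = 4.2e-07), and Adamts14, a procollagen protease gene, fell 2.52-fold. Ccbe1, which encodes the cofactor that assembles VEGF-C with its protease, rose from 0.566 ± 0.111 to 0.891 ± 0.0155 (edgeR log2 fold change 0.65 ± 0.15 SE, adjusted p = 0.00872). The proprotein convertase gene Pcsk7 rose 1.24-fold, but the antisense gene Rnf214 covers 7.98% of its exon bases and the antisense gene Tagln 2.08%. Tagln, a smooth muscle gene, stood at 1826 in WT against 3.52 for Pcsk7, and the strand setting is unknown, so reads of the pair cannot be told apart. Adamts3, the protease that cleaves VEGF-C, did not pass (edgeR log2 fold change 0.37 ± 0.33 SE, adjusted p = 0.469) at levels of 0.219 ± 0.0665 and 0.283 ± 0.0775.

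Class 3 semaphorins and their plexin receptors, which share the neuropilins with VEGF, had 7 of 12 genes higher and 5 that did not pass. Their median was 0.33, against -0.00 over all tested genes, of which 13.2% were higher and 11.5% lower. Sema3d rose 2.46-fold from 3.93 ± 0.320 to 9.67 ± 0.244, Sema3c 1.65-fold and Sema3f 1.37-fold, and the plexin gene Plxna4 1.58-fold. With library totals, 11 of the 12 were higher, beside 46.8% of all tested genes.

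The angiopoietin and Tie genes, a second growth factor system of vessels, had 5 of 6 genes higher and 1 lower, with a median of 0.86. Of all tested genes, 13.2% were higher and 11.5% lower. Svep1, which encodes a large matrix protein that supports Tie signalling in lymphatics, rose from 1.99 ± 0.114 to 7.33 ± 0.0609 (edgeR log2 fold change 1.88 ± 0.05 SE, adjusted p = 2.78e-10), although the antisense gene Gm26889 covers 13.9% of its exon bases. Tek, the angiopoietin receptor gene, rose 1.59-fold and Tie1 2.22-fold, both also on the endothelial list. Angpt4, an angiopoietin gene, fell 2.61-fold from 10.2 ± 0.401 to 3.91 ± 0.285. Among PDGF genes, the ligand gene Pdgfd and the receptor genes Pdgfra and Pdgfrb rose, the ligand genes Pdgfc and Pdgfa fell, and the ligand gene Pdgfb did not pass. Of the exon bases of Pdgfra, 1.66% overlap the antisense gene Gm42803 and 4.55% the antisense gene Gm42802. Gm42803 matches 38.0% of a single Pdgfra transcript. Pdgfd was at 0.47 and Pdgfc at -0.87 on the log2 scale.

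Genes that VEGF is known to induce in endothelium went both ways. Of 18, 5 rose, 7 fell and 6 did not pass, with a median of -0.23. The shares over all tested genes were 13.2% higher and 11.5% lower. Esm1, which encodes endocan, a classical VEGF-induced product of tip cells, fell from 27.7 ± 1.20 to 4.88 ± 0.450 (edgeR log2 fold change -2.50 ± 0.08 SE, adjusted p = 1.5e-09). Rcan1, an inhibitor of calcineurin, fell from 29.4 ± 0.233 to 10.2 ± 0.596 (edgeR log2 fold change -1.52 ± 0.05 SE, adjusted p = 3.13e-09). F3, which encodes tissue factor, rose 2.67-fold, and Vwf, also an endothelial marker, rose 2.14-fold. With library totals 8 were higher and 4 lower, with a median of 0.18. Several of these genes are also made outside endothelium, and the cell source was not measured.

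Most receptor signalling and trafficking genes did not pass, and of all tested genes 24.7% passed (13.2% higher, 11.5% lower). Of 28, 5 rose, 6 fell and 17 did not pass, with a median of -0.05. Of those that passed, the largest step was that of Ptprb, which encodes the endothelial phosphatase that restrains VEGFR2 and Tie2 and rose from 4.38 ± 0.130 to 7.19 ± 0.234 (edgeR log2 fold change 0.72 ± 0.04 SE, adjusted p = 4.27e-07). The small GTPase gene Cdc42 (-0.32), the scaffold gene Iqgap1 (-0.31) and the heat shock gene Hspb1 (-0.28) fell by small steps, with 76.1% of a transcript of Hspb1 matched by the copies Gm9817 and Hsp25-ps1. With library totals 24 of the 28 were higher, beside 46.8% of all tested genes.

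Oxygen-sensing and hypoxia-inducible genes were examined since Vegfa is a classical target of hypoxia-inducible factors. Of 9 oxygen-sensing genes, 8 did not pass and Hif1a, the factor's regulated subunit, fell from 21.1 ± 0.391 to 14.5 ± 0.933 (edgeR log2 fold change -0.53 ± 0.05 SE, adjusted p = 9.91e-06). Its exons share 2.51% of bases with the same-strand gene Gm49321 and 5.60% with an antisense gene. Of a transcript of Hif1a, 27.7% matches Gm49321. The partner Arnt (0.19) and the prolyl hydroxylase genes Egln2 (0.20) and Egln3 (0.75) did not pass. Of 22 hypoxia-inducible genes, 2 rose, 4 fell and 16 did not pass, with a median of -0.02. That is near the share over all tested genes, of which 24.7% passed in either direction. Adm, for the vasodilator peptide adrenomedullin, rose from 1.37 ± 0.116 to 3.83 ± 0.668 and the stress gene Ddit4 rose 1.75-fold. The glycolytic gene Pgk1 fell 1.37-fold and the matrix crosslinking enzyme gene Loxl2 1.52-fold. Other genes match 71.3% and 71.7% of a transcript of Pgk1 and Loxl2. Of the exon bases of Loxl2, 5.57% overlap the antisense gene Gm27177. With library totals 15 of the 22 were higher and 1 lower, beside 46.8% and 3.81% of all tested genes. Of the 9 oxygen-sensing genes 7 were higher there and 0 lower, so the fall of Hif1a did not pass.

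**Figure D4:**
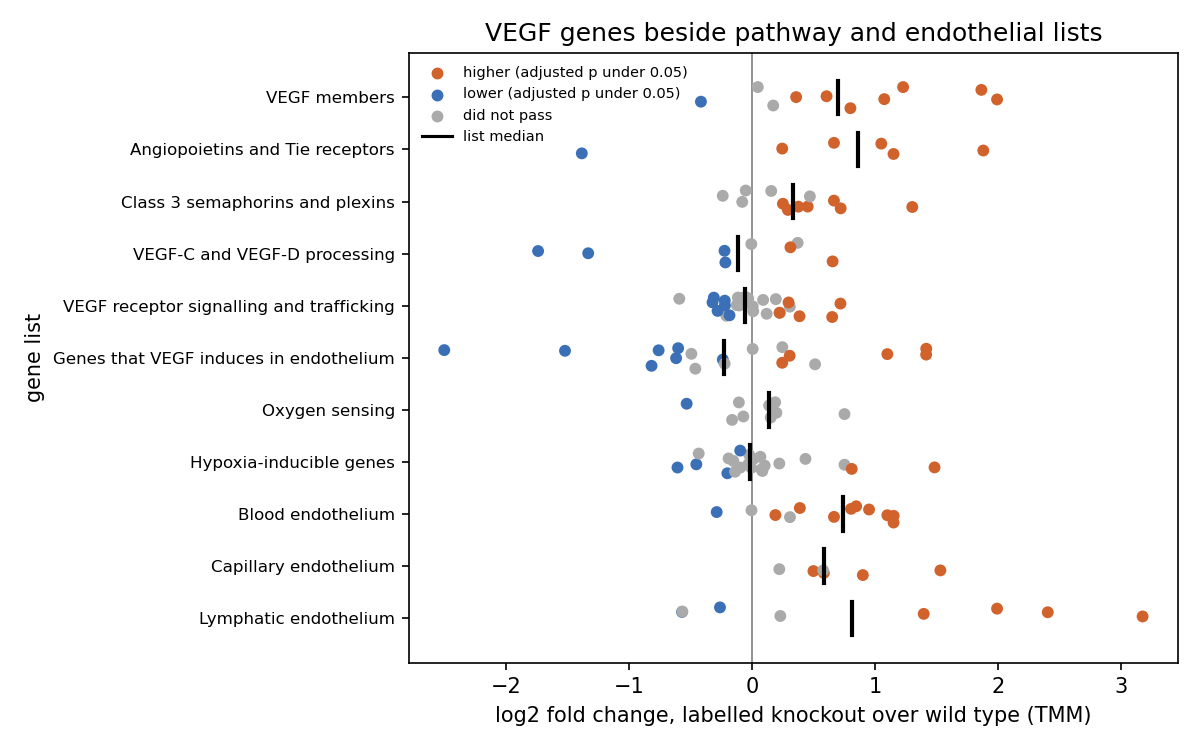
Log2 fold change on the TMM scale of each tested gene of the VEGF family and of 10 related lists, 1 point per gene and a bar at the list median. Points of the VEGF family reach from -0.42 to 1.99, and the VEGF-induced list from -2.50 to 1.41.

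The gene whose pattern was most like that of Flt1, the member with the smallest p, was Bmp3, a bone morphogenetic protein gene (Pearson r = 0.9996 of log2(TMM-scaled FPKM + 1) over 6 libraries). Pfkm, 2210407C18Rik, Ctnnal1 and Shank3 followed, at r of 0.9995 to 0.9992. At the looser cutoff of 0.99, 243 of the 11351 genes compared (2.14%) reached that r with Flt1. A high r over 2 groups of 3 is thus not particular to the genes named.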

How the data were processed

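Aortic RNA was isolated with Trizol, enriched for poly(A) and sequenced in read pairs on a NovaSeq, per the labels' protocols. Bowtie 0.12.2, HISAT2 2.0 and build mm8 appear in the submitters' processing notes, with no role. For the counter, annotation and strand setting, no source used here gives a name. Start and end of 92.1% of the gene identifiers equal those of GENCODE M21 on GRCm38, so the deposited coordinates are given on that build. The deposited estimated counts are whole numbers. More genes stand at 4 counts (1091 to 1137 per library) than at 3 (792 to 867) or 5 (472 to 519), but only 26.2% to 27.7% of those at 1 to 20 counts are multiples of 4, so what a read pair weighs is not settled. The FPKM columns are named so in the deposited file headers, and their scale follows library totals that include mitochondrial genes, judged from the values.

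Counts were rounded, filtered with filterByExpr, scaled with TMM and tested with edgeR 4.0.16 (R 4.3.3) on 3 against 3 libraries, with Benjamini-Hochberg adjustment and a threshold of 0.05. No batch is stated in the labels. Alternatives used DESeq2 1.42.0 and limma 3.58.1. The steps were tested on simulated data, where they recovered 53.1% of genes changed 1.5-fold, 74.3% at 2-fold and 86.4% at 4-fold. There were 11 false calls among 18709 genes tested. A gene that did not pass may thus still differ. Genes named are the 10 members and, of each list, up to 4 genes with the smallest p. Chosen after their values were seen were Pdgfa, Pdgfb, Adamts3, Cldn5, Lyve1, Pdpn, Ccl21a, Cd163, Emcn, Elovl3, Umod and Tagln. Members, lists and tests were chosen with earlier results of these data known. Ratios were tested by exact permutation. Overlaps with other genes were sought in GENCODE M21 and with BLAST+ 2.17.0 (at least 97% identity over 100 bases). No member had such a match to another gene, and Nrp1 alone overlapped another gene, a microRNA.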

Additional observations from a re-analysis of the deposited data

How the results depend on the processing

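The rises of Vegfd, Flt1, Kdr, Flt4, Nrp1 and Nrp2 passed under all 18 alternatives run, with log2 fold changes of 1.15 to 1.64, 1.05 to 1.48, 1.67 to 2.27, 1.20 to 2.40, 0.56 to 1.01 and 0.74 to 1.21. Leaving out each library in turn gave 6 to 7 members higher and 1 lower, Vegfa at 0.31 to 0.40, Vegfb at -0.0190 (without wild type 1) to 0.15, Vegfc at 0.01 to 0.37 and Pgf at -0.45 to -0.37. Members lower numbered 0 with library totals, 0 in limma on log2(FPKM + 1) and 0 on log2(FPKM + 0.1), where Pgf stood at -0.00705, -0.00706 and -0.00811. There Vegfb passed, at 0.45, 0.40 and 0.45, and Vegfc passed with library totals at 0.58. All of these scale by totals that include mitochondrial genes. Of 106 pathway genes besides the members, 28 rose and 25 fell, beside 13.2% and 11.5% of all tested genes. These counts were 76 and 9 with library totals, 74 and 9 in limma with a pseudocount of 1, 73 and 9 with 0.1, and 44 higher with library totals without mitochondrially encoded genes. Leaving out each library gave 23 to 30 higher and 20 to 23 lower. TMM without mitochondrial genes, added after the data were seen, gave 28 and 25. The difference between groups in Nrp1 over the endothelial mean (labelled knockout minus wild type) ranged from -0.0178 to 0.0168 on leaving out each library, above 0 without wild type 1 or 2 or labelled knockout 1 or 3. Same-numbered libraries did not deviate together (correlations of -0.02 to 0.06), so the numbers were not read as pairs. With the replicate block edgeR called 7 members higher and 1 lower, with Vegfa at an adjusted p of 0.0181, and no member's call changed. Groups of 3 limit what spread can be seen, most of all for Vegfc.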
